A study of Arabidopsis thaliana with 9 samples.

Results

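Transcript levels of 10 Arabidopsis thaliana genes of the mitotic cell cycle were compared between 3 genotypes: the D-type cyclin CYCD3;1 (AT4G34160), the A-type cyclin CYCA2;3 (AT1G15570), the B-type cyclins CYCB1;1 (AT4G37490), CYCB1;2 (AT5G06150), CYCB1;4 (AT2G26760) and CYCB2;1 (AT2G17620), the plant-specific cyclin-dependent kinases CDKB1;1 (AT3G54180), CDKB2;1 (AT1G76540) and CDKB2;2 (AT1G20930), and KNOLLE (AT1G08560), the syntaxin of the cell plate. The genes were picked by their locus identifiers, and each was found once in every library among 26984 named genes. All 10 passed the expression minimum used for testing, which was at least 1 FPKM (fragments scaled to transcript length and to the number of mapped fragments of the library) in at least 3 of the 9 libraries.

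Total RNA was taken from whole seedlings aged 7 days, grown in short days and collected at ZT20, 20 hours after lights on and therefore in the dark part of the day. There were 3 libraries for each genotype: wild-type Col-0 with no treatment named, the single mutant cop1-6, and the double mutant cor27cor28. COP1, whose gene carries the cop1-6 allele, is part of a ubiquitin ligase that in the dark sends activators of the light response such as HY5 to the proteasome. COR27 and COR28 are related nuclear proteins whose genes respond to cold, to light and to the circadian clock. The labels name no batch, no backcross and no rescued line, and they do not say whether replicates came from separate sets of plants, so p-values here reflect the spread between libraries, which may be technical.

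FPKM sums lay between 584878 and 612462 in wild type, 515929 and 532655 in cop1-6 and 548055 and 562621 in cor27cor28, and read depth is unknown. The cop1-6 label was not checked by the targeted transcript, which was not analysed here. COR27 transcript stood at 12.5, 17.4 and 16.2 FPKM in wild type and at 48.0, 50.1 and 47.9 FPKM in the libraries labelled cor27cor28, where it was called higher, while COR28 stood at 2.73, 1.92 and 3.08 against 2.49, 1.48 and 2.71 FPKM and was not called. Neither transcript was lost, and the files do not say which part of either gene the alleles remove, so these libraries are referred to by their label. Of the 9 libraries, cop1-6 replicate 3 stood apart most, with 307 genes at least 2-fold above both other libraries of its group, against 38 to 97 in the others.

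Cyclins are the regulatory subunits that activate cyclin-dependent kinases at set stages of the cell cycle. In plants, D-type cyclins link growth signals such as cytokinin and sugar to entry into the cycle, A2-type cyclins with CDKB1 act before mitosis and restrain the switch to endoreduplication, and B-type cyclins and CDKB2 act in mitosis itself. KNOLLE is made in dividing cells and drives the fusion of vesicles that builds the new cell wall at cytokinesis. Many such genes carry a mitosis-specific activator element with the core AACGG, which MYB3R transcription factors bind. In seedlings division takes place mainly in the shoot and root meristems, in young leaves and in the stomatal lineage, and in darkness COP1 activity holds the shoot meristem in check.

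In wild type KNOLLE had the highest level per transcript length, 41.7 ± 3.34 FPKM (mean ± SD, n = 3 libraries, as for all group values here), followed by the D-type cyclin at 30.6 ± 1.39 FPKM. KNOLLE overlaps the gene NPQ1, as described below, so its level and its first place are uncertain. CDKB2;1 at 17.1 ± 1.74 and CYCB1;2 at 12.9 ± 1.80 FPKM came next. The A-type cyclin at 10.1 ± 0.414 FPKM and CDKB2;2 at 8.99 ± 1.48 FPKM had overlapping ranges, as did CDKB1;1 at 6.11 ± 0.587 and CYCB1;4 at 5.90 ± 0.850 FPKM, so neither pair could be ordered. CYCB1;1 reached 3.57 ± 0.413 FPKM and CYCB2;1 was lowest at 1.63 ± 0.224 FPKM. The order was nearly the same in the mutants. Within both pairs with overlapping ranges the order was the other way round in 1 mutant, with the B-type cyclin above the kinase in cop1-6 and the kinase above the A-type cyclin in cor27cor28, again with overlap.

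**Figure D1:**
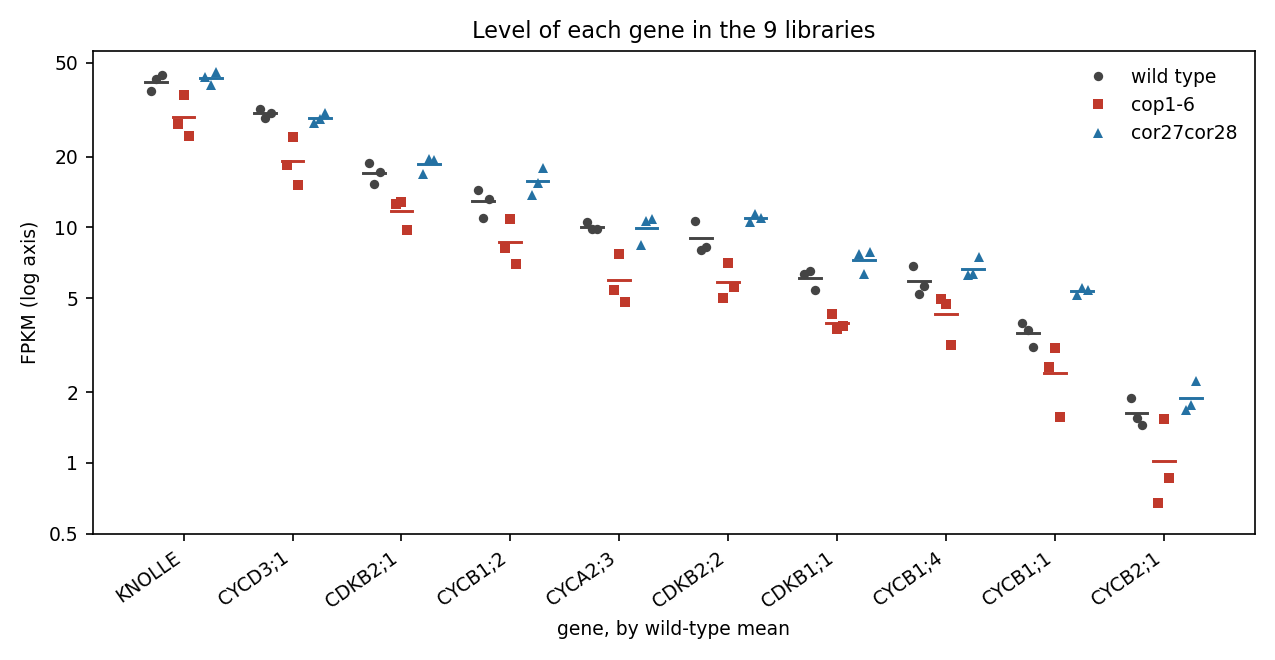
FPKM of the 10 genes (vertical log axis) in each of the 9 libraries, with the genes in the order of their wild-type means along the horizontal axis. Symbols are libraries (circles for wild type, squares for cop1-6, triangles for cor27cor28) and short lines are group means, and the cop1-6 squares lie below all wild-type circles for 9 genes, the exception being the gene at the far right.

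Compared with wild type, 9 of the 10 genes fell in cop1-6, and the group mean of all 10 stood at 0.595 to 0.727 of the wild-type mean. The D-type and the A-type cyclin changed most, the 3 CDKB kinases and KNOLLE lay between, and the B-type cyclins AT4G37490 and AT2G26760 passed the threshold only narrowly. A gene was called changed at a Benjamini-Hochberg adjusted p under 0.05 in limma, adjusted over all 17075 genes tested. Over all tested genes 38.6% were called lower and 10.9% higher in this comparison, so lower calls were common. The values of single libraries are given below in the order of replicates 1, 2 and 3. RNA came from whole seedlings, in which fewer dividing cells and less RNA per dividing cell cannot be told apart.

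CYCD3;1, which with CDKA drives the start of the cycle and keeps young leaf cells dividing, lies on chromosome 4 at 16357421 to 16359565 on the plus strand (TAIR10.1, from which all positions here are taken). It was measured at 32.0, 29.2 and 30.5 FPKM in wild type, at 18.4, 24.1 and 15.1 FPKM in cop1-6 and at 27.9, 28.9 and 30.6 FPKM in cor27cor28. All cop1-6 libraries were below all others, and wild type and cor27cor28 overlapped. The log2 fold change of cop1-6 against wild type, on the log2(FPKM + 1) scale used for every fold change here, was −0.67 ± 0.13 (SE, adjusted p = 0.0011). The neighbouring gene AT4G34150 overlaps it on the same strand and rose in cop1-6 from 27.4 ± 0.591 to 55.6 ± 6.74 FPKM (adjusted p = 4.99e-06), and both share no stretch of 50 bases.

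CYCA2;3 limits endoreduplication and is located on chromosome 1 at 5361865 to 5365559 on the plus strand. Wild type gave 10.5, 9.81 and 9.83 FPKM, cop1-6 gave 5.43, 7.68 and 4.84 FPKM, and cor27cor28 gave 8.40, 10.7 and 10.9 FPKM. The cop1-6 libraries again lay below all others, with replicate 2 the highest of them. At −0.68 ± 0.15 (SE, adjusted p = 0.00203) this was the largest fall among the 10 genes.

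The B-type cyclins are the classical markers of cells in late G2 and mitosis. The AACGG core was searched on both strands of the 250 bases before each gene start. AACGG and its reverse complement CCGTT were counted as matches. A match was present in 6 of the 10 genes, against 20.6% of 26983 promoters in the genome, and 3 or more matches were present in 3 of the 10, against 0.7% of promoters. Those 3 were all B-type cyclins, with 3 matches in AT4G37490, 4 in AT5G06150 and 3 in AT2G17620. The D-type cyclin, the kinase AT1G20930 and KNOLLE held 1 match each, and none was found in the A-type cyclin, the B-type cyclin AT2G26760 and the other kinases. The windows of the D-type cyclin and of the kinases AT3G54180 and AT1G76540 overlap neighbouring annotated genes (AT4G34150, AT3G54170 and AT1G76550). The E2F motifs TTTCCCGC and TTTGGCGC, present in 1.0% of promoters, and the G-box CACGTG, present in 6.5%, matched none of the 10 windows. The stretches that hold the matches are shown for the repeated cases and, for contrast, for the single matches of the kinase and the syntaxin, read from the RefSeq TAIR10.1 genome in the direction of transcription with the motif in capitals. They lie at chr4:17624309-17624496 (minus strand), chr5:1861704-1861866 (minus), chr2:7663898-7664023 (plus), chr1:7294811-7294855 (minus) and chr1:2711001-2711032 (minus), in the order of the lines.
CYCB1;1: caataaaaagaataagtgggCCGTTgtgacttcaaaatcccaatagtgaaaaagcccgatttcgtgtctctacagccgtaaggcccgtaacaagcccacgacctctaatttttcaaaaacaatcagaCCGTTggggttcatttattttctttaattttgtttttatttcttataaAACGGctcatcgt
CYCB1;2: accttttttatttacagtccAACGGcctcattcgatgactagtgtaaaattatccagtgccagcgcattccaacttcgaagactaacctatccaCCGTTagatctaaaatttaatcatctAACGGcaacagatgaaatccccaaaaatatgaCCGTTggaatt
CYCB2;1: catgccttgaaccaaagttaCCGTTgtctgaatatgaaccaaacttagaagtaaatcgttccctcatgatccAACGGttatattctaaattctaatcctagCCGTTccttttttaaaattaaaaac
CDKB2;2: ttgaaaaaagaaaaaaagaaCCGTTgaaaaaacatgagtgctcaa
KNOLLE: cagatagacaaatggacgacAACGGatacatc

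**Figure D2:**
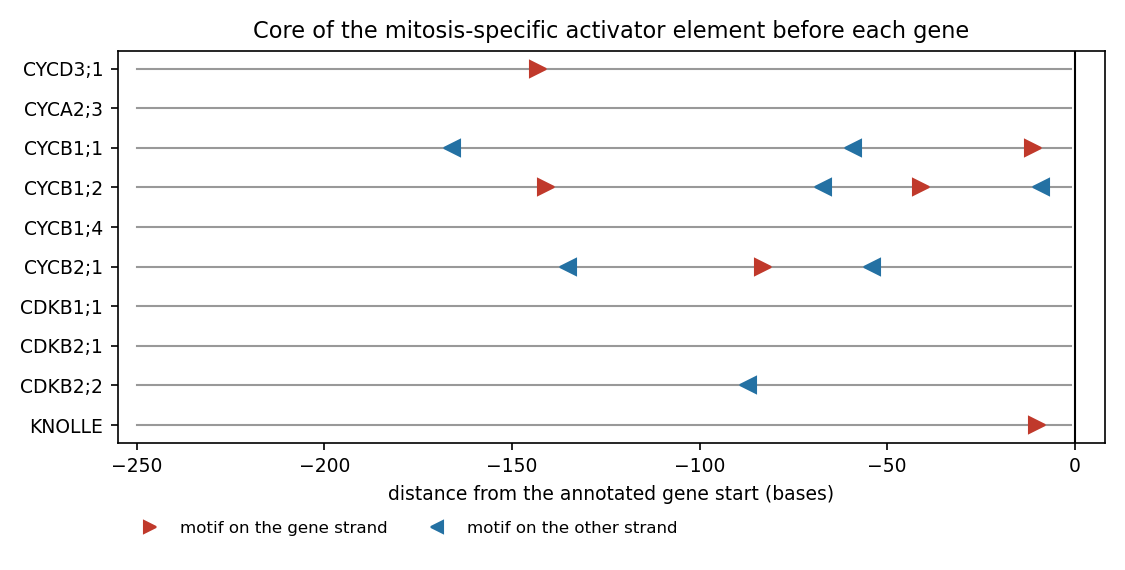
Positions of AACGG matches on either strand in the 250 bases before the start of each of the 10 genes, with distance from the gene start in bases on the horizontal axis and 1 line per gene. Arrowheads pointing right mark AACGG on the strand of the gene and those pointing left mark it on the other strand, and 3 of the 4 B-type cyclins hold 3 or more.

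CYCB1;1, the cyclin most used to mark dividing cells, is encoded on chromosome 4 at 17621886 to 17624308 on the minus strand. Its values were 3.91, 3.69 and 3.11 FPKM in wild type, 2.55, 3.07 and 1.57 FPKM in cop1-6 and 5.16, 5.51 and 5.45 FPKM in cor27cor28. The 3 groups did not overlap, with cop1-6 lowest and cor27cor28 highest. The fall in cop1-6 was −0.45 ± 0.16 (SE, adjusted p = 0.0348), and the call was lost when any of 4 of the 9 libraries was left out, with the value at −0.26 (adjusted p = 0.15) without cop1-6 replicate 3.

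CYCB1;2, the most abundant of the 4 B-type cyclins among the 10 genes, is encoded on chromosome 5 at 1859279 to 1861703 on the minus strand. It stood at 14.5, 11.0 and 13.3 FPKM in wild type, at 8.18, 10.9 and 6.99 FPKM in cop1-6 and at 13.7, 15.5 and 18.0 FPKM in cor27cor28. The highest cop1-6 library nearly met the lowest wild-type library, and the fold change was −0.54 ± 0.15 (SE, adjusted p = 0.0112). It shares 11.2% of its stretches of 50 bases with CYCB1;5 (AT1G34460), which stood at or below 0.555 FPKM in every library.

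CYCB1;4, a mitotic cyclin without a promoter match, lies on chromosome 2 at 11401118 to 11403433 on the plus strand. Wild type had 6.84, 5.20 and 5.66 FPKM, cop1-6 had 4.96, 4.75 and 3.15 FPKM and cor27cor28 had 6.27, 6.33 and 7.47 FPKM. Its change of −0.40 ± 0.15 (SE, adjusted p = 0.0469) in cop1-6 was the smallest of those called, and it passed the threshold in 3 of the 9 fits that left out 1 library. Without cop1-6 replicate 3 it was −0.23 (adjusted p = 0.197). CYCB2;1, on chromosome 2 at 7664055 to 7666522 on the plus strand, was the member that did not pass. Its levels were 1.88, 1.55 and 1.45 FPKM in wild type, 0.675, 1.53 and 0.861 FPKM in cop1-6 and 1.68, 1.76 and 2.23 FPKM in cor27cor28. Replicate 2 of cop1-6 reached into the wild-type range, and the difference was −0.40 ± 0.17 (SE, adjusted p = 0.0754). Without that library it was −0.57 (adjusted p = 0.0158).

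Among the kinases, CDKB1;1, which acts with A2-type cyclins before mitosis and in the stomatal lineage, lies on chromosome 3 at 20059671 to 20061488 on the plus strand. The libraries gave 6.35, 6.55 and 5.44 FPKM in wild type, 4.29, 3.70 and 3.83 FPKM in cop1-6 and 7.74, 6.34 and 7.83 FPKM in cor27cor28. The cop1-6 libraries were close together and below all others, with a fold change of −0.53 ± 0.12 (SE, adjusted p = 0.0029). AT3G54190 overlaps this gene on the opposite strand, and 1.65% of the stretches of 50 bases of CDKB1;1 are shared with it. That neighbour fell in cop1-6 from 34.6 ± 1.07 to 28.9 ± 2.01 FPKM (−0.25, adjusted p = 0.0262). The part of its reads in the level of CDKB1;1 was not tested.

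CDKB2;1 and CDKB2;2, a pair needed for cell division in the shoot meristem, lie on chromosome 1 on the minus strand at 28720328 to 28722550 and at 7292389 to 7294746. The first gave 18.8, 15.4 and 17.2 FPKM in wild type, 12.6, 12.9 and 9.76 FPKM in cop1-6 and 16.9, 19.6 and 19.4 FPKM in cor27cor28. The second gave 10.7, 8.04 and 8.23 FPKM in wild type, 5.01, 7.05 and 5.58 FPKM in cop1-6 and 10.6, 11.4 and 11.0 FPKM in cor27cor28. Both had every cop1-6 library below every other library and fell by about the same amount, −0.52 ± 0.12 (SE, adjusted p = 0.00297) for the first and −0.54 ± 0.13 (SE, adjusted p = 0.0049) for the second.

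KNOLLE, at 2709525 to 2711000 on the minus strand of chromosome 1, was measured at 38.0, 42.7 and 44.4 FPKM in wild type, at 27.4, 36.7 and 24.4 FPKM in cop1-6 and at 43.5, 40.4 and 45.7 FPKM in cor27cor28. Every cop1-6 library was lower than every wild-type library, and the fold change was −0.50 ± 0.13 (SE, adjusted p = 0.00556). This gene shares 31.0% of its stretches of 50 bases with NPQ1 (AT1G08550), which overlaps it on the opposite strand. The sources used here do not state whether counting used strand, so reads of both genes cannot be told apart there and the level of KNOLLE is uncertain. NPQ1 itself stood at 29.6 FPKM in wild type, 32.5 in cop1-6 and 32.4 in cor27cor28 and was not called in cop1-6.

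In all, 9 of the 10 genes had cop1-6 libraries that did not overlap with wild type, where 44.3% of all tested genes did so in the lower direction. The deposited values of all genes were shifted in cop1-6, with a median log2 fold change of −0.21 over tested genes. Relative to that shift the 10 genes were lower by values from −0.18 to −0.47, and between 13.6% and 31.7% of all tested genes had a lower fold change than each of them. Scaling by the median of ratios to a reference library brought the median of all genes to 0.0093. On that scale all 10 fold changes were still negative, and 2 genes were called, the D-type cyclin at −0.42 (adjusted p = 0.0305) and the A-type cyclin at −0.46 (adjusted p = 0.0246), where 20.5% of all genes were called lower and 22.4% higher. When cop1-6 replicate 3 was also left out, the B-type cyclins AT2G26760 and AT4G37490 stood at −0.002 (adjusted p = 0.992) and −0.055 (adjusted p = 0.772). Scaling every library to the same FPKM sum gave 5 calls, the D-type cyclin, the A-type cyclin and the 3 CDKB kinases, against 23.6% of all genes.

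**Figure D3:**
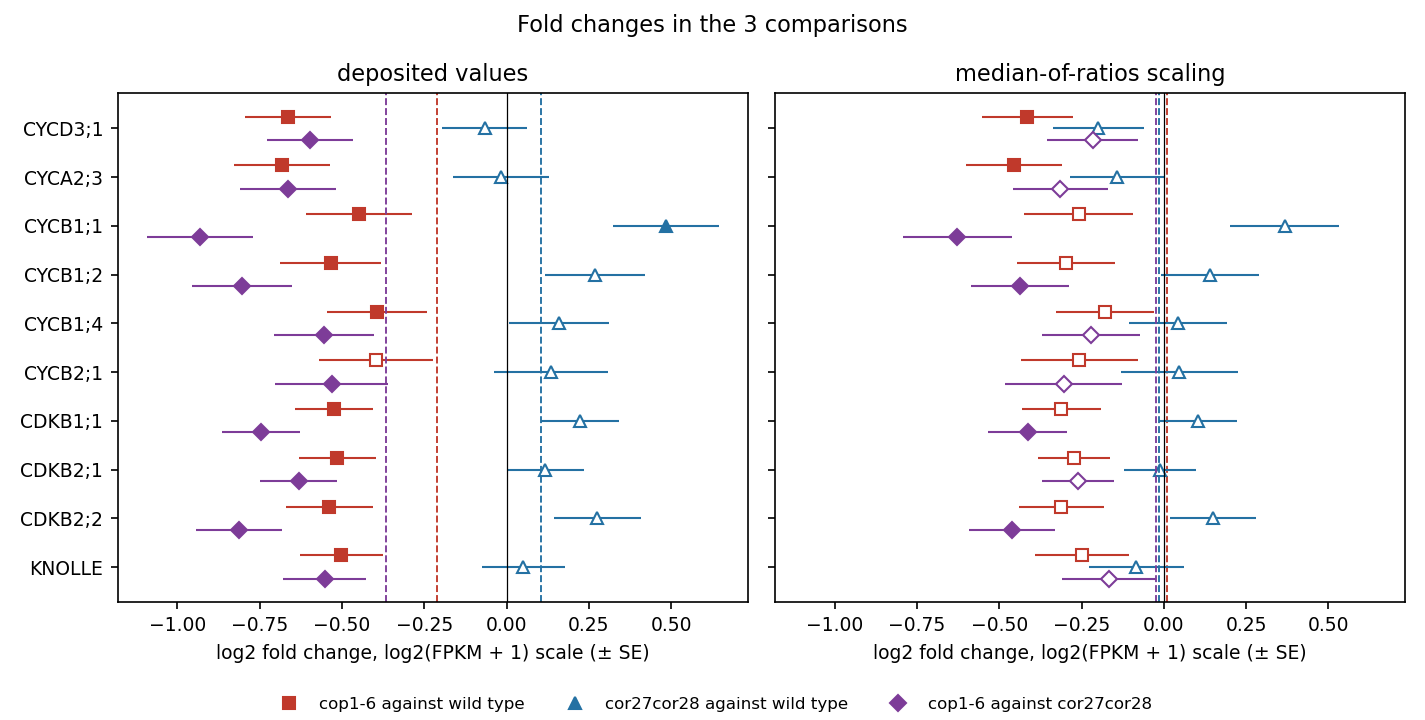
Log2 fold changes with standard errors of the 10 genes in the 3 comparisons on the log2(FPKM + 1) scale, for deposited values (left) and after median-of-ratios scaling (right). Filled symbols mark genes called at adjusted p under 0.05 and dashed lines mark the median of all tested genes, which is −0.21 for cop1-6 against wild type in the left panel and near 0 in the right panel.

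In the libraries labelled cor27cor28, CYCB1;1 was the only gene of the 10 to be called on the deposited scale. It rose from 3.57 ± 0.413 to 5.37 ± 0.184 FPKM, a ratio of means of 1.51 and a log2 fold change of 0.48 ± 0.16 (SE, adjusted p = 0.0494), with 3 of 3 libraries above every wild-type library. Of all tested genes 14.6% were called higher and 7.29% lower, so 1 gene of 10 was no larger a share than in the rest of the transcriptome. Libraries all above wild type without overlap were seen for 4780 of the 17075 tested genes and for 1 of the 10. By that measure too, the 10 genes held no larger a share. The call was at the edge of the threshold. It held in 2 of the 9 fits that left out 1 library, and its adjusted p lay between 0.0154 and 0.145 over all 18 alternatives, in which the fold change was positive each time.

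The other 9 genes did not pass the test. Among them CDKB2;2 had a value of 0.28 ± 0.13 (SE, adjusted p = 0.153), CYCB1;2 of 0.27 ± 0.15 (SE, adjusted p = 0.221) and CDKB1;1 of 0.22 ± 0.12 (SE, adjusted p = 0.195). The D-type cyclin at −0.067 and the A-type cyclin at −0.018 were the pair with negative values, and KNOLLE stood at 0.050. The median of the 10 fold changes was 0.15 beside 0.10 for all tested genes. With median-of-ratios scaling none of the 10 was called in limma, where 7.36% of all genes were called higher and 12.5% lower, and 1 passed an unadjusted p under 0.05, which was again the same B-type cyclin at 0.37 (adjusted p = 0.144). With equal totals it was called at 0.56 (adjusted p = 0.0225), where 25.3% of all genes were called higher.

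Between the mutants, all 10 genes were lower in cop1-6 than in the libraries labelled cor27cor28, without overlap of the groups. The widest gap was in CYCB1;1, at 2.40 ± 0.763 against 5.37 ± 0.184 FPKM, or −0.93 ± 0.16 on the log2 scale (SE, adjusted p = 0.000428), and the other 9 fold changes lay between −0.53 and −0.81. Lower calls made up 56.6% of all tested genes in this comparison and non-overlapping lower values 59.8%, so most genes moved this way on the deposited scale. With equal totals all 10 were called too, against 44.6% of all genes. After median-of-ratios scaling 4 of the 10 were called against 14.1% of all genes: CYCB1;1 at −0.63 (adjusted p = 0.0122), AT1G20930 at −0.46 (adjusted p = 0.0173), AT5G06150 at −0.44 (adjusted p = 0.043) and AT3G54180 at −0.41 (adjusted p = 0.0191). The comparison uses the same cop1-6 and cor27cor28 libraries as the comparisons with wild type, so it adds no separate evidence to them.

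Ratios of genes within a library do not depend on how libraries are scaled. They are given as descriptions, since the ratios were chosen after the levels were seen. The level of KNOLLE is uncertain because of its overlap with NPQ1, so ratios to KNOLLE are uncertain too. The part of NPQ1 reads in them was not tested. The ratio of CYCB1;1 to the D-type cyclin was 0.117 ± 0.0131 in wild type, 0.123 ± 0.0178 in cop1-6 and 0.185 ± 0.00646 in cor27cor28, where all 3 libraries were above all others. Its ratio to KNOLLE was 0.0864 ± 0.0165, 0.0804 ± 0.0146 and 0.125 ± 0.00996 in the same order, again with cor27cor28 above the rest. Within the summed FPKM of the 4 B-type cyclins it held 15.0% ± 2.05 in wild type, 14.4% ± 1.69 in cop1-6 and 18.2% ± 1.52 in cor27cor28, and there the cor27cor28 and wild-type ranges overlapped. In cop1-6 the ratios of both the D-type and the A-type cyclin to KNOLLE were below those of wild type without overlap, at 0.650 ± 0.0264 against 0.737 ± 0.0905 and at 0.202 ± 0.00637 against 0.243 ± 0.0303. Wild-type replicate 1 stood apart in both ratios. For the D-type cyclin it was at 0.842, beside 0.684 and 0.687 in the other wild-type libraries and at most 0.672 in cop1-6, and for the A-type cyclin it was at 0.277, beside 0.230 and 0.221 and at most 0.209 in cop1-6. CYCB1;2 held 53.7% ± 2.66 in wild type, 53.1% ± 2.86 in cop1-6 and 52.9% ± 1.58 in cor27cor28 of the summed B-type cyclin FPKM, with overlapping ranges.

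**Figure D4:**
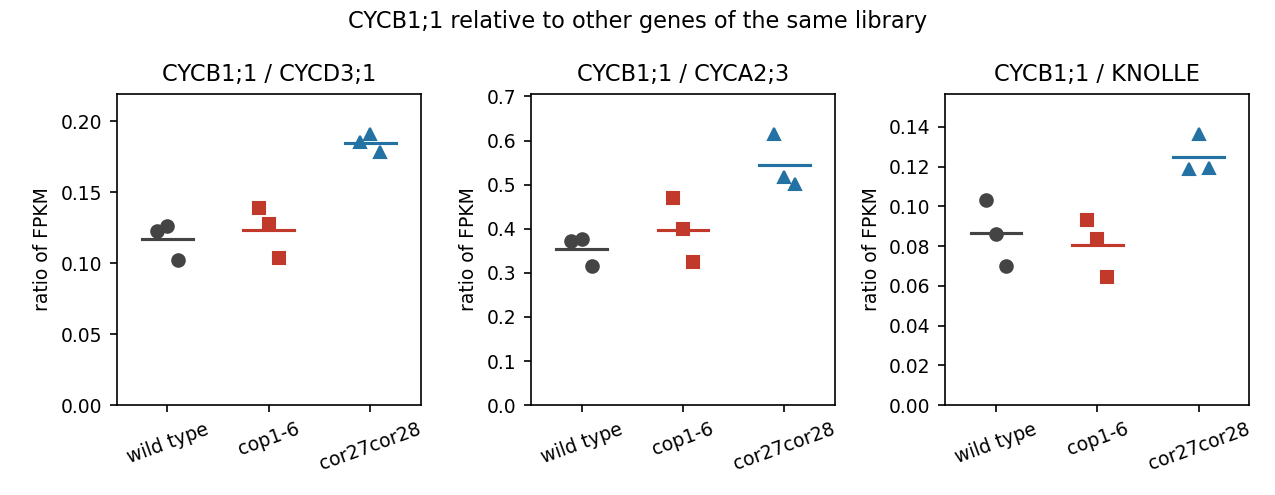
FPKM of CYCB1;1 divided by that of the D-type cyclin, the A-type cyclin or KNOLLE of the same library, 1 panel per ratio with an axis from 0, points for libraries and lines for group means. In each panel the 3 cor27cor28 libraries lie above all wild-type and cop1-6 libraries.

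The 10 genes also varied together among libraries of 1 genotype. Replicate 2 of cop1-6 was the highest of its group for 8 of the 10, while it was highest for 29% of all tested genes, and replicate 3 was the lowest for 7. Wild-type replicate 1 was the highest of its group for 8, beside 38% of all tested genes, and cor27cor28 replicate 3 for 7, beside 29%. Over the 9 libraries the Pearson correlation of log2 values between pairs of these genes ran from 0.74 to 0.98 with a median of 0.87 over 45 pairs, and after median-of-ratios scaling from 0.43 to 0.94 with a median of 0.72. These correlations span all 3 genotypes, so they include the differences between genotypes and the scaling of each library. They therefore do not describe variation within 1 genotype alone, and other pairs of genes were not set beside them.

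Of 5647 other genes with a symbol and a mean of at least 5 FPKM, the 8 whose values over the 9 libraries were most like the mean profile of the 10 had r between 0.980 and 0.991. They were TRM7, SCPL45, HB31, NPGR1, RABA5a, CSLD5, BGLU33 and GRF1 (AT4G09000, a general regulatory factor). These r are on deposited values and include the scaling of each library. After median-of-ratios scaling r of the same 8 genes lay between 0.861 (SCPL45) and 0.974 (RABA5a). TRM7, with the TON1 recruiting motif, was closest, at 5.28 ± 0.208 FPKM in wild type, 3.39 ± 0.657 in cop1-6 and 6.47 ± 0.615 in cor27cor28. HB31, a homeobox protein, went from 11.5 ± 0.566 to 6.85 ± 1.25 FPKM in cop1-6 and stood at 12.8 ± 0.786 FPKM in cor27cor28. CSLD5, a cellulose synthase-like protein of the cell plate, went from 18.7 ± 0.470 to 13.2 ± 1.67 FPKM in cop1-6 and stood at 19.9 ± 1.77 FPKM in cor27cor28.

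Of 9 other A-type and B-type cyclins and CDKB genes tested, 6 were called lower in cop1-6 against 38.6% of all genes, and 1 was called lower after median-of-ratios scaling, against 20.5%. CYCA2;4, a close relative of the A-type cyclin above, fell from 5.05 ± 0.623 to 2.83 ± 0.801 FPKM (−0.68, adjusted p = 0.00327) and was the 1 called on both scales. CYCA1;1 fell by 0.45 (adjusted p = 0.00644) and CDKB1;2, the second gene of the CDKB1 pair, by 0.57 (adjusted p = 0.00689) on the log2 scale. In cor27cor28 none of the 9 was called in limma, 2 passed an unadjusted p under 0.05 with higher values, and their median fold change was 0.33 beside 0.10 for all tested genes.

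Most D-type and A3-type cyclins act earlier in the cycle. Of 11 other D-type and A3-type cyclins tested, 7 were called lower in cop1-6 on the deposited scale, beside 38.6% of all genes. After median-of-ratios scaling 4 were called lower, beside 20.5%, and 1 higher, which was CYCD2;1 at 0.42 (adjusted p = 0.00159). CYCA3;2, an S-phase cyclin, fell from 28.3 ± 0.995 to 12.4 ± 0.657 FPKM (−1.13, adjusted p = 2.83e-07) and CYCD6;1, which drives formative divisions in the root, from 11.5 ± 0.863 to 5.01 ± 1.08 FPKM (−1.07, adjusted p = 5.56e-05). In cor27cor28 CYCD2;1 rose from 25.2 ± 1.02 to 36.2 ± 2.05 FPKM (0.50, adjusted p = 0.00233). CYCD3;2, of the same subfamily as the D-type cyclin above, fell there by 0.38 on the log2 scale (adjusted p = 0.0423). Of the 11, 1 was called higher and 1 lower in cor27cor28, beside 14.6% and 7.29% of all genes.

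Of 8 genes for CDKA, its activating kinases, CKS subunits and WEE1, 4 were called lower in cop1-6, beside 38.6% of all genes, with CDKA;1, the main kinase of the plant cycle, falling from 48.5 ± 2.49 to 28.1 ± 2.28 FPKM (−0.77, adjusted p = 9.03e-06). The activating kinase CDKF;1 fell by 0.67 (adjusted p = 4.38e-05) and the subunit CKS1 by 0.65 (adjusted p = 0.000147) on the log2 scale. After median-of-ratios scaling 3 were called lower and 2 higher in cop1-6, beside 20.5% and 22.4% of all genes, and the main kinase stood at −0.52 (adjusted p = 0.00107). In cor27cor28 CDKD;2 was the 1 of the 8 called on the deposited scale, at 0.40 (adjusted p = 0.0465), beside 14.6% of all genes called higher. Without wild-type replicate 2 it was at 0.25 (adjusted p = 0.151). After scaling it was not called (0.28, adjusted p = 0.134). The main kinase was then the 1 called, lower at −0.29 (adjusted p = 0.0499), beside 12.5% of all genes called lower.

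Among 9 inhibitors of cyclin-dependent kinases tested, 3 were called lower and 1 higher in cop1-6, shares close to the 38.6% and 10.9% of all genes. After median-of-ratios scaling 1 of 10 was called lower and 1 higher, beside 20.5% and 22.4% of all genes. The lower calls of KRP4 and KRP7 were lost. SIM, which promotes endoreduplication in leaf hairs, fell from 19.3 ± 1.75 to 9.34 ± 0.546 FPKM (−0.97, adjusted p = 4.11e-06). Its relative SMR1 rose from 34.0 ± 1.80 to 48.6 ± 5.95 FPKM (0.50, adjusted p = 0.000657) and fell to 25.1 ± 0.540 FPKM in cor27cor28 (−0.42, adjusted p = 0.00729). It was the 1 of the 9 called in cor27cor28, beside 7.29% of all genes called lower. SMR1 kept both directions and calls after median-of-ratios scaling, and SIM stood there at −0.73 (adjusted p = 7.43e-05). SMR4 and SMR7 were not analysed here.

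Replication genes copy the DNA in S phase, and E2F factors and MYB3R factors switch on the genes of S phase and of mitosis. Of 14 DNA replication genes tested, 6 were called higher in cor27cor28 and of 13 MYB3R, E2F, DP and RBR regulators 5 were called higher, beside 14.6% of all genes. After median-of-ratios scaling these counts were 2 and 1, beside 7.36%. RNR1, a subunit of ribonucleotide reductase, rose from 23.0 ± 0.644 to 34.0 ± 2.03 FPKM (0.55, adjusted p = 0.00188). ETG1, a replisome factor, rose by 0.61 on the log2 scale (adjusted p = 0.0098), the E2F partner DPA by 0.48 (adjusted p = 0.0192) and the atypical E2F DEL1 by 0.45 (adjusted p = 0.019). In cop1-6 4 of the replication genes and 2 of the regulators were called lower, both smaller shares than the 38.6% of all genes, among them PCNA1 at −0.41 (adjusted p = 0.00239) and MYB3R4, an activator of mitotic genes, at −0.42 (adjusted p = 0.03). Neither call held after median-of-ratios scaling, where PCNA1 stood at −0.17 (adjusted p = 0.131) and MYB3R4 at −0.22 (adjusted p = 0.19).

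KNOLLE can be read beside the other genes of division. Of 20 spindle, phragmoplast and cytokinesis genes tested, 5 were called lower in cop1-6, which at that count is below the share of all genes. KEULE, the Sec1-type partner of KNOLLE, fell from 21.3 ± 3.14 to 13.6 ± 0.962 FPKM (−0.61, adjusted p = 0.00166), and NPSN11, a SNARE that forms a complex with KNOLLE, fell by 0.55 on the log2 scale (adjusted p = 0.00233). These were the 2 of the 20 still called lower after median-of-ratios scaling, beside 20.5% of all genes. KEULE stood there at −0.36 (adjusted p = 0.016) and NPSN11 at −0.32 (adjusted p = 0.0373). SNAP33, of the same list, was not called on the deposited scale (−0.21, adjusted p = 0.236) or after scaling (0.040, adjusted p = 0.831). Of the 20, 2 were called higher in cor27cor28, beside 14.6% of all genes. The kinesin HIK rose there by 0.47 (adjusted p = 0.0216) and the Aurora kinase AUR1 by 0.44 (adjusted p = 0.0216). Both calls were lost after median-of-ratios scaling, with HIK at 0.35 (adjusted p = 0.0592) and AUR1 at 0.31 (adjusted p = 0.0852). TPX2 was not analysed here. Of 7 activators and inhibitors of the anaphase-promoting complex, which marks B-type cyclins for degradation, 3 were called lower in cop1-6, a share near the 38.6% of all genes, with the inhibitor OSD1 falling from 5.85 ± 0.621 to 2.90 ± 0.421 FPKM (−0.81, adjusted p = 0.000155). CDC20.1, its activator in mitosis, was the 1 of the 7 called higher in cor27cor28, at 0.49 (adjusted p = 0.04995), beside 14.6% of all genes. After median-of-ratios scaling 2 of the 7 were called lower in cop1-6, beside 20.5% of all genes. CDC20.1 was then not called in cor27cor28 (0.36, adjusted p = 0.119).

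**Figure D5:**
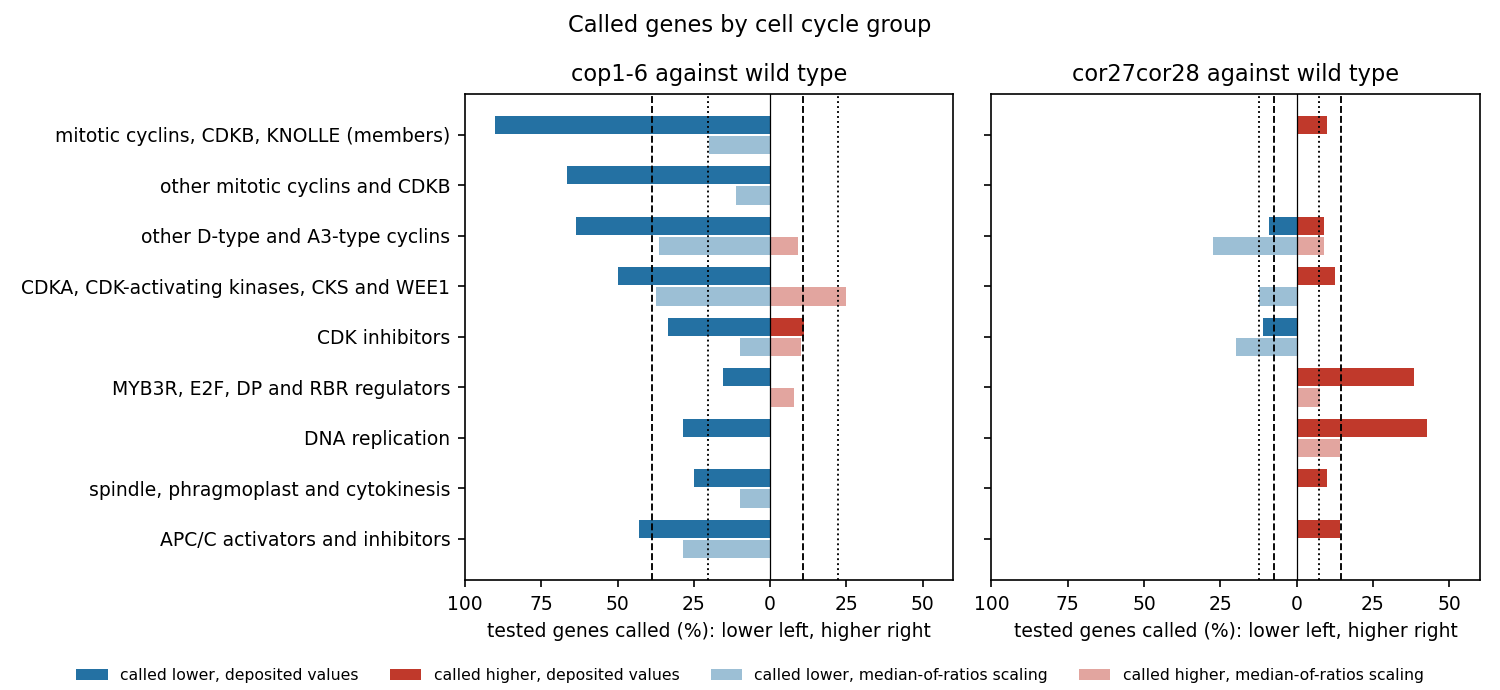
Share of tested genes of each cell cycle list called lower (bars to the left) or higher (bars to the right) against wild type, in percent, for cop1-6 (left panel) and cor27cor28 (right panel), in dark shades for deposited values and light shades after median-of-ratios scaling. Vertical lines mark the shares over all tested genes, which are 38.6% lower and 10.9% higher for cop1-6 on the deposited scale (dashed) and 20.5% and 22.4% after scaling (dotted).

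Markers of tissues that hold dividing cells were read in the same libraries. Summed FPKM of 9 shoot meristem and young leaf markers was 116 to 120 in wild type, 89.0 to 91.7 in cop1-6 and 115 to 128 in cor27cor28, and all 5 of them that were tested were called lower in cop1-6, beside 38.6% of all genes. After median-of-ratios scaling 3 of the 5 were called lower, beside 20.5%. GRF2, a growth-regulating factor, made up most of these sums and was not among the 3. It stood at 83.6 ± 5.26 FPKM in wild type, 68.9 ± 2.50 in cop1-6 and 87.9 ± 3.15 in cor27cor28, with fold changes in cop1-6 of −0.28 (adjusted p = 0.00692) on the deposited scale and −0.018 (adjusted p = 0.866) after scaling. STM, which maintains the shoot meristem, fell in cop1-6 from 3.49 ± 0.155 to 1.69 ± 0.297 FPKM (−0.75, adjusted p = 0.000464). KNAT1 fell from 11.3 ± 1.59 to 6.08 ± 0.445 FPKM (−0.79, adjusted p = 0.000264). ANT, at −0.39 (adjusted p = 0.0375), was not called after scaling (−0.15, adjusted p = 0.406). CUC2 and CUC3 were below the minimum for testing. CUC2 was higher in cop1-6, at 0.792 ± 0.122 against 0.492 ± 0.176 FPKM in wild type, and CUC3 stood at 0.577 ± 0.277 against 0.601 ± 0.0831 FPKM. WUS and CLV3 were at or near 0 in all libraries. The growth-regulating factors GRF1 (AT2G22840), GRF3 and GRF5 were not analysed here. The 7 stomatal lineage markers summed to 40.3 to 45.7 FPKM in wild type, 30.9 to 38.3 in cop1-6 and 43.7 to 50.9 in cor27cor28. Of these 7, 2 were called lower in cop1-6, beside 38.6% of all genes, and 0 after median-of-ratios scaling, beside 20.5%. The 5 root meristem markers summed to 29.7 to 34.5, 32.2 to 36.6 and 30.9 to 33.1 FPKM, with PLT1, PLT2 and WOX5 near 0 in all libraries. Nearly all of that sum came from SCR and SHR, regulators of the root ground tissue, which changed in opposite directions in cop1-6. SCR rose from 17.4 ± 2.07 to 26.4 ± 1.10 FPKM (0.58, adjusted p = 0.000262) and SHR fell from 14.3 ± 1.02 to 7.37 ± 1.31 FPKM (−0.88, adjusted p = 6.19e-05). The 6 markers of the differentiated root endodermis fell from 26.3 to 33.9 FPKM in wild type to 0.596 to 1.30 in cop1-6. All 6 were called lower there, beside 38.6% of all genes. In cor27cor28 their sum was 17.3 to 23.6 FPKM. The 3 green leaf markers summed to 17800 to 18600 FPKM in wild type, 16800 to 19100 in cop1-6 and 11700 to 13000 in cor27cor28. All 3 were called lower in cor27cor28, beside 7.29% of all genes. In cop1-6 they went both ways, with RCA, which activates Rubisco, at 0.83 (adjusted p = 1.87e-05) and the antenna gene CAB3 at −0.81 (adjusted p = 0.000363), both called in the same direction after scaling too. The part of these tissues in the levels of the 10 genes was not tested.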

How the data were processed

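RNA sequencing libraries of 9 seedling samples, 3 per genotype, were compared. The authors deposited 1 FPKM value per gene and library, which is relative to the rest of the library. Per the submitters' processing notes, the tools were DESeq 1.18.0, Bowtie2, TopHat, Cufflinks, HISAT2 2.2.1.0 and Trimmomatic 0.36, with no role or order, and TAIR10 was the build. The sources used here state neither use of strand nor read numbers, and no counting interval was computed. Entries without a gene name, 13 per library with at most 0.00203% of the FPKM sum, were left out.

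Genes reaching 1 FPKM in 3 or more of 9 libraries were fitted in limma 3.58.1 (R 4.3.3) on log2(FPKM + 1), with all 9 libraries in 1 model and a variance trend, and p-values were adjusted over all 17075 genes by Benjamini-Hochberg. Calling was tested on simulated data. Alternatives were a pseudocount of 0.1, no minimum, median-of-ratios scaling, equal totals, only the groups compared, no variance trend, each library left out and the replicate number as a block. Members, lists, tests and named genes (from each list up to 3 called with the lowest adjusted p in cop1-6 and 2 in cor27cor28, and the 8 genes most like the members) were chosen with earlier results of these data known. List genes not named so in the TAIR10.1 annotation (SMR2, SMR3, SMR6 and SMR8) were left out. Promoters were the 250 bases before each RefSeq gene start, and shared sequence was counted as 50-base stretches of transcripts found in other genes.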

Additional observations from a re-analysis of the deposited data

How the results depend on the processing

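Direction against wild type in cop1-6 was negative for all 10 genes under all 18 alternatives, but near 0 for CYCB1;4 (−0.002, adjusted p = 0.992) and small for CYCB1;1 (−0.055, adjusted p = 0.772) with median-of-ratios scaling and without cop1-6 replicate 3. The number called depended on scaling. Of 9 called lower, 5 were called with equal totals, 2 with median-of-ratios scaling and 0 when cop1-6 replicate 3 was also left out. Leaving out 1 library gave 6 to 10, with 6 without wild-type replicate 1. CYCD3;1, CYCA2;3, KNOLLE and the CDKB kinases were called in all 9 of those fits. The single higher call in cor27cor28 (CYCB1;1) became 0 with a pseudocount of 0.1, no minimum or median-of-ratios scaling, and 0 to 1 without 1 library. Calls over all genes in that comparison were 1834 to 4108 without 1 library, against 3738, with the lowest number without cor27cor28 replicate 2 and 2123 without replicate 3. For cop1-6 against cor27cor28, 11235 genes became 5699 with median-of-ratios scaling and 5353 when cop1-6 replicate 3 was also left out, and members called went from 10 to 4 and 3, and were 9 to 10 without 1 library. Values that changed sign were all uncalled and in cor27cor28 against wild type: CYCD3;1 at 0.030 and CYCA2;3 at 0.074 with equal totals, and CDKB2;1 at −0.012 and KNOLLE at −0.083 with median-of-ratios scaling, alone, with the block or without cop1-6 replicate 3. Without 1 library, CYCA2;3 ranged from −0.079 to 0.089 (positive without wild-type replicate 1 or cor27cor28 replicate 1) and KNOLLE from −0.014 (without wild-type replicate 1) to 0.096. The cause was not tested.

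No pairing of samples by replicate number was seen. Deviations of same-numbered libraries correlated between −0.18 and 0.13, and those of differently numbered libraries between −0.16 and 0.21. With 3 libraries per group this could not exclude a pairing. With the replicate number as a block, members called were 8 in cop1-6, 0 in cor27cor28 and 10 between the mutants. The block with median-of-ratios scaling gave 2, 0 and 3 members, and 5191 genes between the mutants. Depth is unknown, so precision rests on 3 libraries per group.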
